A study of Homo sapiens with 6 samples.

Results

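MALAT1, NEAT1 and MIAT are long noncoding RNAs that stay in the nucleus, and all their array probes were taken by gene name. The name matched 8 probes for MALAT1, 6 for NEAT1 and 14 for MIAT, 28 of the 50599 probes and 3 of the 36337 gene names on the array. The genes were chosen by name after the log2 differences between the groups on these arrays were known, so their values are given as a description. No p of a single probe is printed for them. Counts of their probes under a p threshold stand beside those of all tested probes, also as a description. RNA with a trimethylguanosine or 7-methylguanosine cap (m3G/m7G) had been immunoprecipitated from MOLT-4, an established line of human T-lymphoblastic leukaemia, and each eluate was hybridised in Cy3 to a 1-colour Agilent array. The mock group held 3 arrays of cells transfected with the empty vector, and the NUDT16 group 3 arrays of cells transfected to overexpress NUDT16. The promoter of the vector, the time after transfection and whether replicates were separate cultures are not given in the sources used here, so the spread between arrays may be technical. The comparison addresses which capped transcripts change in the eluate when NUDT16 is supplied.

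NUDT16 is a Nudix hydrolase that removes caps from RNA, first known for decapping a small nucleolar RNA in the nucleus. MALAT1 collects in nuclear speckles, bodies rich in splicing factors. Its 3′ end is not made by ordinary polyadenylation: RNase P cuts the nascent RNA, a triple helix of U-rich stretches and an A-rich tract protects the new end, and the piece cut off is trimmed by RNase Z to the tRNA-like mascRNA. NEAT1 is the scaffold of paraspeckles and is made as a short polyadenylated isoform and a long isoform that share their 5′ end, of which the long one is also cut by RNase P. MIAT, also called Gomafu, is spliced, stays in the nucleus and carries repeats of a branch-point-like motif that bind the splicing factor SF1.

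The 8 MALAT1 probes are printed in 5′ to 3′ order because the results turn on where along the RNA a probe lies. All were read from the deposited array files, which list them on the plus strand of hg19 and pair them with the transcript NR_002819. Capitals mark TTTTGCTTTTT, the 11 bases richest in T over all MALAT1 probes and a U-rich stretch of the kind that enters the triple helix, or AATAAA, the common polyadenylation signal. Introns, exons and the position of the RNase P cut are not given, because an hg19 annotation was not used here. Whether a probe named MALAT1 lies 3′ of that cut was therefore not determined.
A_21_P0010981, chr11:65267042-65267101: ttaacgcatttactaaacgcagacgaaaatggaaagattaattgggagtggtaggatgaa
A_21_P0010982, chr11:65268619-65268678: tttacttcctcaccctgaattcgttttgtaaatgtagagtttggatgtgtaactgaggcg
A_21_P0010980, chr11:65272646-65272705: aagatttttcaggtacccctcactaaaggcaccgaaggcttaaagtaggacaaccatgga
A_24_P873659, chr11:65272873-65272932: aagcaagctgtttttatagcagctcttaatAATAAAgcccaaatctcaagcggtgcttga
A_19_P00324839, chr11:65273511-65273570: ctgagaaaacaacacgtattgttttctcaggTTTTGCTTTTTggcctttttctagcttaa
A_19_P00325158, chr11:65273714-65273773: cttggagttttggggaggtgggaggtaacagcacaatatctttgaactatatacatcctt
A_19_P00809614, chr11:65273811-65273870: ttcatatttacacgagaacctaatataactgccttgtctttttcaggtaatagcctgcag
A_19_P00805006, chr11:65273871-65273930: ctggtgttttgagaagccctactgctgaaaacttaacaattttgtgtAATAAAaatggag

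On both strands of all 50599 probes, each of 60 bases, TTTTGCTTTTT occurred in 22 (0.0435%), 1 of them a MALAT1 probe. AATAAA occurred in 11.3% of all probes, in 2 of 8 MALAT1 probes and in no NEAT1 or MIAT probe. The U-rich stretch is used below to name positions along MALAT1: 5 probes lie up to and with it, and 3 lie 3′ of it. RefSeq (GRCh38.p14, used for names only) lists mascRNA, of 58 bases, and the antisense RNA TALAM1 as separate entries at this locus.

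For NEAT1, 2 probes are printed: the brightest, which the files assign to NR_028272, and a probe they assign to the long transcript AF001893 alone. For MIAT the brightest probe and its 2 nearest neighbours, all of NR_003491, are printed. Neither set holds a searched motif, so these sequences carry no capitals.
NEAT1 A_19_P00321332, chr11:65193885-65193944: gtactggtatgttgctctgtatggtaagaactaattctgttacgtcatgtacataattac
NEAT1 A_21_P0010978, chr11:65194123-65194182: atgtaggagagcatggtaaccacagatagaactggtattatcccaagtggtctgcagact
MIAT A_19_P00321068, chr22:27066259-27066318: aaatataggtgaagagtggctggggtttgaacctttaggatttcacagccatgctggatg
MIAT A_19_P00321067, chr22:27066322-27066381: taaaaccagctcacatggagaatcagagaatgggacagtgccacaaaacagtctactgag
MIAT A_19_P00315524, chr22:27066386-27066445: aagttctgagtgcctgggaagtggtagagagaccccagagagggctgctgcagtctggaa

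The arrays differed in depth. Between 39.3% and 52.0% of the spots for cell RNA were well above background on 5 arrays, and 14.6% on NUDT16 replicate 2, whose 75th percentile signal was 8.66 against 92.5 to 358 on the others. Both NUDT16 probes were well above background on 0 of 6 arrays and did not check the labels. The pseudogene NUDT16P1 had a probe that rose above background on 3 of 3 arrays with NUDT16 and on 0 of 3 without it. Another NUDT16P1 probe, A_24_P626981, was well above background on 0 of 3 arrays in either group. Of 15 T-lymphoblast markers, 12 were well above background on all 6 arrays, and 3 of 3 fibroblast markers, MS4A1 (B cell), HBB and HBA2 (erythroid) and EPCAM (epithelial) on none. Signals are given as log2 with the array's own 75th percentile subtracted, and errors of group means are SDs over 3 arrays. Differences are NUDT16 minus mock with the standard error (SE) of the limma fit over 17765 tested probes, which did not pair the arrays. A probe was tested where either group had it well above background on its 3 arrays. Input RNA, taken ahead of the pull-down, was not analysed here, so the amount of an RNA, its capping and its recovery cannot be told apart, nor can fewer cells of a kind and less RNA per cell. Other scalings move all differences together, by -0.70 with a median shift and by -1.08 without scaling, so differences above 0 and below these sizes are negative there, while their distance from the median of all probes stays as it is.

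Of the 28 probes, 21 were tested and 10 were well above background on all 6 arrays. All 8 MALAT1 probes were tested, 5 of 6 NEAT1 probes and 8 of 14 MIAT probes. All 21 tested probes passed through the mock arrays, and 11 of them were not well above background on NUDT16 replicate 2. On that array the lowest signal well above background was 1.17, against -3.69 to -2.18 on the other arrays. A dim probe there holds a background value that is high on this scale, which can raise its difference in pair 2. With limma and Benjamini-Hochberg adjustment at 0.05, 0 of the 21 were called, against 1 of all tested probes (0.00563%). An unadjusted limma p under 0.05 was found for 0 of the 21, against 15 of all tested probes (0.0844%). Both counts come from the fit that did not pair same-numbered arrays, and the unadjusted count was not made for a paired fit.

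The MALAT1 probes up to the U-rich stretch were lower in NUDT16 than in mock within every same-numbered pair of arrays, and the groups overlapped in each of them, with replicate 1 low in both groups. The brightest MALAT1 probe, A_21_P0010981, stood at 7.87, 10.14 and 9.68 on mock replicates 1, 2 and 3 and at 7.46, 8.85 and 8.70 on NUDT16 replicates 1, 2 and 3. Replicate 1 was the lowest array of its group in both, and each NUDT16 array lay below the mock array of its number. The mock mean was 9.23 ± 1.20 (SD, n = 3) and the NUDT16 mean 8.34 ± 0.77 (SD, n = 3), a difference of -0.89 (SE 0.72). Within pairs 1, 2 and 3 the difference was -0.41, -1.29 and -0.98. It became -1.57 without mock replicate 1, -0.44 without mock replicate 2 and -0.45 without NUDT16 replicate 1.

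The next probe 3′, A_21_P0010982, had a difference of -1.80 (SE 0.99), the farthest from 0 of the 21 over all 6 arrays. It was -0.84 without NUDT16 replicate 1, where other probes lay farther from 0, and -2.90 without mock replicate 1. Mock replicates 1, 2 and 3 gave 3.21, 6.76 and 6.25, and NUDT16 replicates gave 1.71, 4.12 and 5.01. Each pair had the same direction, at -1.50, -2.65 and -1.24. Its range over the 6 arrays was 5.05, the 99.4th percentile of all tested probes. The mock arrays alone ranged over 3.56, which was wider than the difference between the groups.

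Near the 3′ end, A_21_P0010980 had 3.09, 5.72 and 5.78 on mock and 1.87, 4.09 and 4.80 on NUDT16 arrays, a difference of -1.27 (SE 0.88). A_24_P873659, which holds AATAAA, had 2.12, 4.58 and 4.87 on mock and 1.11, 3.18 and 3.74 on NUDT16 arrays, a difference of -1.18 (SE 0.85). Replicate 1 was again lowest in both groups. Without NUDT16 replicate 1 these differences were -0.41 and -0.40, and without mock replicate 1 -2.16 and -2.05. A_19_P00324839, the probe with the U-rich stretch, had 2.37, 4.15 and 4.86 on mock and 1.60, 3.98 and 3.89 on NUDT16 arrays. Its difference was -0.64 (SE 0.81), with -0.77, -0.17 and -0.97 in the pairs, so pair 2 was nearest to 0. Without NUDT16 replicate 1 this difference was 0.14.

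The 3 probes 3′ of the U-rich stretch had a flatter profile. A_19_P00325158 stood at 0.40, 0.48 and 0.64 on mock and at -0.14, 1.30 and 0.06 on NUDT16 arrays, a difference of -0.10 (SE 0.61), with its NUDT16 replicate 2 spot not well above background. A_19_P00809614 stood at 1.28, 1.07 and 1.48 on mock and at 0.98, 0.61 and 0.95 on NUDT16 arrays, a difference of -0.43 (SE 0.56). It was the only tested probe of the 3 genes whose groups did not overlap, 1 of 21, against 1.38% of all tested probes, and its lowest value, on NUDT16 replicate 2, was not well above background. A_19_P00805006, which ends the row and holds AATAAA, stood at 2.14, 1.90 and 1.93 on mock and at 1.84, 2.46 and 1.43 on NUDT16 arrays, a difference of -0.08 (SE 0.58). NUDT16 replicate 2 was the highest array for the outer pair of these probes and the lowest for the middle probe.

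**Figure D1:**
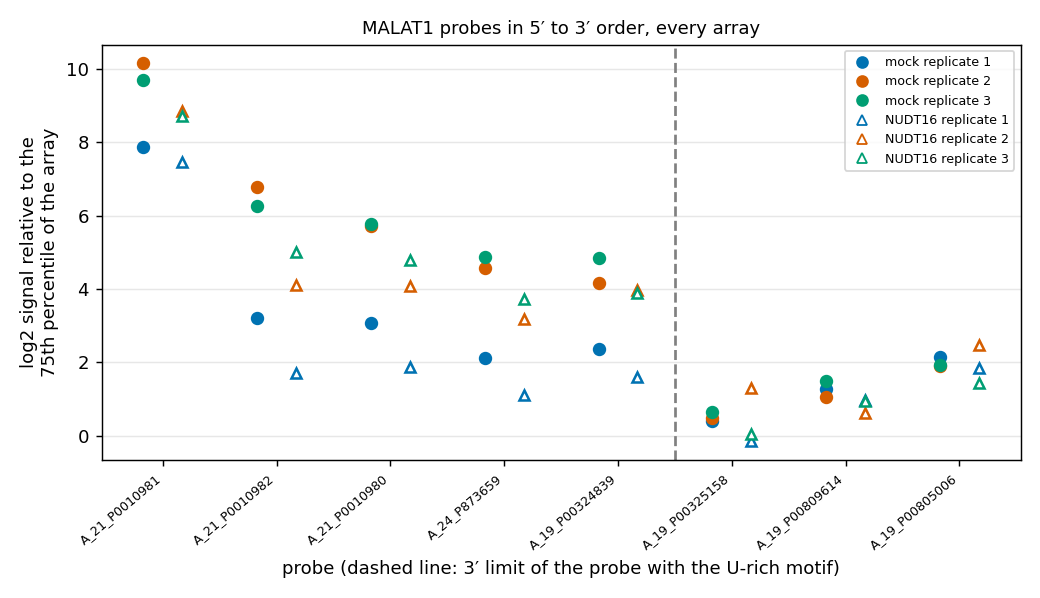
Log2 signal relative to the array's 75th percentile (y axis) for the 8 MALAT1 probes in 5′ to 3′ order (x axis), 1 point per array, filled circles mock and open triangles NUDT16, coloured by replicate number. Replicate 1 (blue) lies lowest in both groups for the 5 probes left of the dashed line, and each of the 3 probes to its right spans at most 1.44 over the arrays.

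The 2 stretches of MALAT1 were also set against each other within each array, which does not depend on how arrays are scaled; the split was chosen after the values were seen and has no test. The mean over the 5 upstream probes was 3.73, 6.27 and 6.29 on mock and 2.75, 4.85 and 5.23 on NUDT16 arrays, 5.43 ± 1.47 against 4.27 ± 1.33 (SD, n = 3 each). The mean over the 3 downstream probes was 1.28, 1.15 and 1.35 on mock and 0.90, 1.46 and 0.81 on NUDT16 arrays. The upstream mean thus ranged over 2.56 among mock arrays and the downstream mean over 0.20.

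Upstream minus downstream was 2.45, 5.12 and 4.94 on mock and 1.85, 3.38 and 4.42 on NUDT16 arrays. It was smaller with NUDT16 in each pair, by -0.60, -1.73 and -0.52, with a mean change of -0.95, while the groups overlapped. Pair 2 was farthest from 0. On NUDT16 replicate 2 the downstream probes A_19_P00325158 and A_19_P00809614 were not well above background, so the pair 2 change rests in part on background values. The mock SD of single probes was 1.20 to 1.92 upstream and 0.12 to 0.21 downstream, against a median of 0.66 over all tested probes. Among mock arrays the upstream probes therefore spread more than the typical probe, and the downstream probes less. Among NUDT16 arrays the downstream SDs were 0.78, 0.20 and 0.52 in 5′ to 3′ order, and the downstream mean ranged over 0.65.

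**Figure D2:**
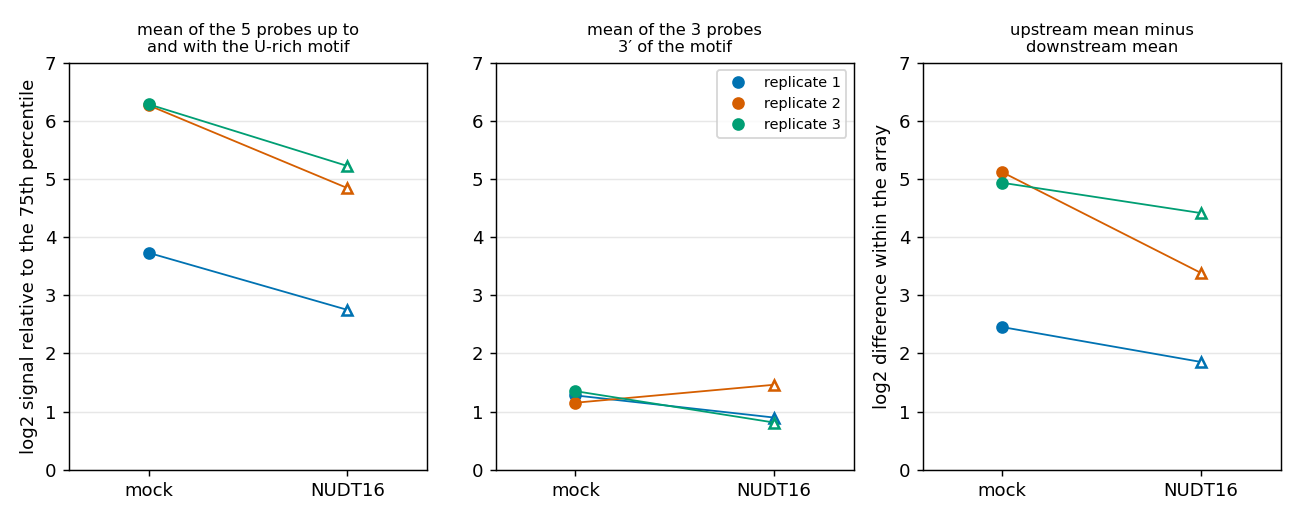
Mean log2 signal of the 5 MALAT1 probes up to the U-rich stretch (left), of the 3 probes 3′ of it (middle), both relative to the array's 75th percentile, and their difference within the array (right), in mock and NUDT16, with lines joining arrays of 1 replicate number. In the left and right panels NUDT16 is lower than mock along all 3 lines, and in the middle panel NUDT16 is lower in pairs 1 and 3 and higher in pair 2. The NUDT16 replicate 2 points of the middle and right panels include probes that were not well above background.

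All 5 tested NEAT1 probes were below 0 in pairs 1 and 3, whereas in pair 2, which holds the NUDT16 array of low depth, 2 were below 0 and 3 above. The mean differences of NEAT1 therefore lay on both sides of 0, and in a fit on replicates 1 and 3 alone all 5 were below it. The brightest probe, A_19_P00321332, stood at 1.90, 0.64 and 0.66 on mock and at 1.62, 1.48 and 0.63 on NUDT16 arrays. Mock replicate 1 was the highest array, and NUDT16 replicate 3 was nearly level with mock replicates 2 and 3. The mock mean was 1.07 ± 0.72 (SD, n = 3) and the NUDT16 mean 1.24 ± 0.53 (SD, n = 3), a difference of 0.17 (SE 0.62), with -0.28, 0.83 and -0.03 in the pairs. Without mock replicate 2 the difference was -0.04, without mock replicate 3 -0.03 and without NUDT16 replicate 1 -0.01, so its sign rests on single arrays.

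Of the other NR_028272 probes, A_21_P0011024 (chr11:65192168-65192227) stood at -2.90, -0.78 and -0.89 on mock and at -4.64, -0.98 and -1.74 on NUDT16 arrays. Its difference was -0.93 (SE 0.91), but only 1 of 3 NUDT16 arrays had it well above background, and without NUDT16 replicate 1 the difference was 0.16. A_19_P00318409, which shares 19 bases with it, was well above background on 3 arrays and was not tested. A_19_P00321333 (chr11:65193578-65193637) stood at 0.22, -0.49 and 0.22 on mock and at -0.25, -0.17 and -0.10 on NUDT16 arrays, a difference of -0.16 (SE 0.57).

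The files assign 2 tested probes to the long NEAT1 transcript alone, of which 1 had a difference below 0 in all 3 pairs and is not described further, and neither was well above background on all 6 arrays. The other, A_21_P0010978, stood at -3.15, -1.68 and -1.02 on mock and at -3.16, 0.23 and -1.93 on NUDT16 arrays, a difference of 0.33 (SE 0.85) with NUDT16 replicates 1 and 2 not well above background. Without NUDT16 replicate 2 it was -0.60.

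The brightest MIAT probe and its 2 nearest neighbours follow each other within 187 bases of chromosome 22, and all 3 were lower in NUDT16 within every pair. The brightest, A_19_P00315524, stood at 3.52, 3.69 and 4.46 on mock and at 3.04, 2.04 and 3.95 on NUDT16 arrays. Replicate 3 was the highest array of both groups and NUDT16 replicate 2 the lowest array of all. The mock mean was 3.89 ± 0.50 (SD, n = 3) and the NUDT16 mean 3.01 ± 0.95 (SD, n = 3), a difference of -0.88 (SE 0.65), with -0.48, -1.65 and -0.52 in the pairs. Without NUDT16 replicate 2 it was -0.40.

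The neighbouring MIAT probes also had replicate 3 highest in each group and NUDT16 replicate 2 lowest of all. A_19_P00321067 stood at 2.73, 2.62 and 3.55 on mock and at 2.32, 1.60 and 3.07 on NUDT16 arrays, a difference of -0.63 (SE 0.62). A_19_P00321068 stood at 2.40, 2.32 and 3.12 on mock and at 2.03, 0.17 and 2.67 on NUDT16 arrays, a difference of -0.99 (SE 0.71), with its NUDT16 replicate 2 spot not well above background. Without NUDT16 replicate 2 the latter was -0.26, and pairs 1 and 3 gave -0.37 and -0.45.

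Elsewhere along MIAT the differences had no common sign, although in pair 3 7 of all 8 tested MIAT probes were below 0. Toward the 5′ end A_19_P00318175 differed by -0.02 (SE 0.64), A_19_P00322571 by 0.60 (SE 0.93) and A_19_P00322828 by 0.13 (SE 0.59). A_19_P00322571 stood at -2.20, -0.95 and -1.19 on mock and at -2.32, 1.75 and -1.98 on NUDT16 arrays, and without NUDT16 replicate 2 its difference was -0.70. In these 5′ probes NUDT16 replicate 2 was the highest or next highest array of its group, opposite to the bright probes. For A_19_P00318175 (-1.03) and A_19_P00322828 (-0.71) this rank rests on background values, because their spots on that array were dim. Of the NUDT16 spots of A_19_P00318175, only 1 cleared background by this measure. A_19_P00322571 did so on all 6 arrays, so the contrast with the bright probes rests on it alone.

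At the 3′ end, A_19_P00322900 (chr22:27072279-27072338) stood at 1.35, -1.17 and 0.07 on mock and at 1.07, -0.74 and -0.11 on NUDT16 arrays, a difference of -0.01 (SE 0.74). A_24_P854492 (chr22:27072342-27072401) stood at 1.26, -1.71 and -0.50 on mock and at 0.96, 0.08 and -0.38 on NUDT16 arrays, a difference of 0.54 (SE 0.76). Both had replicate 1 highest in each group, unlike the bright probes, where it was replicate 3. The remaining 6 MIAT probes were not tested; 1 of them was well above background on no array and the others on 2 to 4, and 3 of them overlap each other by 31 to 52 bases.

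**Figure D3:**
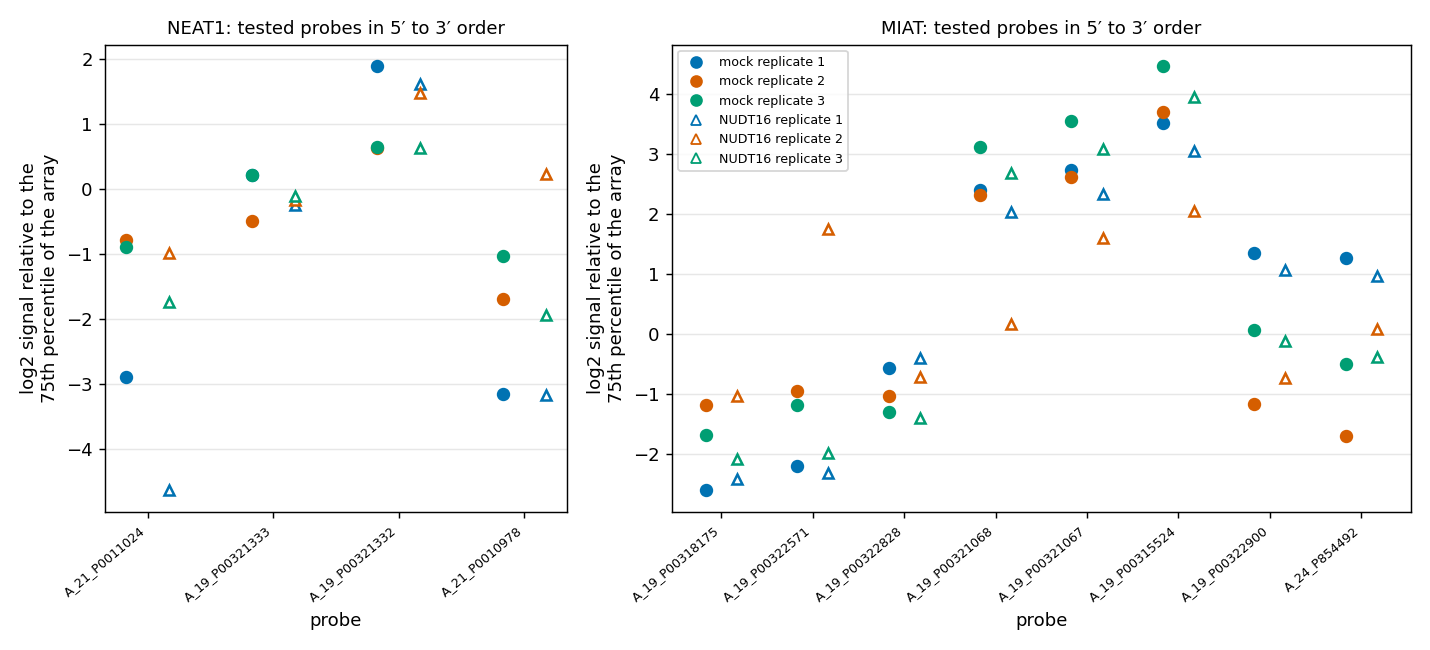
Log2 signal relative to the array's 75th percentile (y axis) for 4 tested NEAT1 probes (left) and the 8 tested MIAT probes (right) in 5′ to 3′ order, 1 point per array, filled circles mock and open triangles NUDT16, coloured by replicate number. The groups overlap in every probe shown, and NUDT16 replicate 2 (orange triangles) lies lowest for the 3 bright MIAT probes.

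The counts that follow describe tested probes only. Since 11 of the 21 were dim on a NUDT16 array and all passed through mock, being tested favours lower values. In pair 2 the high background of NUDT16 replicate 2 can instead raise the values of dim probes. Nothing is read from the counts. Over the 3 genes, 16 of 21 tested probes had a difference below 0 (all tested probes: 51.4%), with a median of -0.40 against -0.02 over all tested probes. Lower in all 3 pairs were 11 of 21, against 23.1% of all tested probes: 6 of 8 for MALAT1, 2 of 5 for NEAT1 and 3 of 8 for MIAT. Higher in all 3 pairs were 0 of 21, against 20.0% of all tested probes. Taken relative to the median of each pair, which lay between -0.09 and 0.03, the counts were also 11 and 0, against 22.0% and 21.4%. Of the 10 probes well above background on all 6 arrays, 8 were below 0, against 36.6% of the 6582 such probes of the whole array. Lower in all 3 pairs were 7 of these 10, against 15.0%, and higher in all 3 pairs 0, against 30.8%. The 7 were 5 of 6 MALAT1 probes, 0 of 1 NEAT1 probe and 2 of 3 MIAT probes. For MALAT1 up to the U-rich stretch, 15 of 15 pair values were below 0, and probes of 1 RNA are not replicates of each other.

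Same-numbered arrays shared a slide. In a fit on replicates 1 and 3 alone with the replicate block, which leaves out the array of low depth, 378 tested probes were called lower (2.13%) and 143 higher (0.805%). Among them were 4 of the 5 upstream MALAT1 probes, none of the 3 downstream ones, 1 NEAT1 probe (A_21_P0011024) and none of the 8 MIAT probes, all of the called ones lower. The 4 MALAT1 differences there were -1.37, -1.10, -1.07 and -0.87 in 5′ to 3′ order, and that of the brightest probe, which was not called, was -0.70. Each probe had the same SE of 0.26 in that fit, so calls followed the size of the difference alone. The called NEAT1 probe A_21_P0011024 had passed the filter through mock only. Its NUDT16 replicate 1 value of -4.64 was not well above background, so that call rests on a background value. With the block over all 3 pairs, 0 of the 21 were called and 1 probe of all tested. The SEs of the 5 upstream MALAT1 probes were then 0.32, 0.37, 0.31, 0.29 and 0.32 in 5′ to 3′ order. Without the block they were 0.72, 0.99, 0.88, 0.85 and 0.81.

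**Figure D4:**
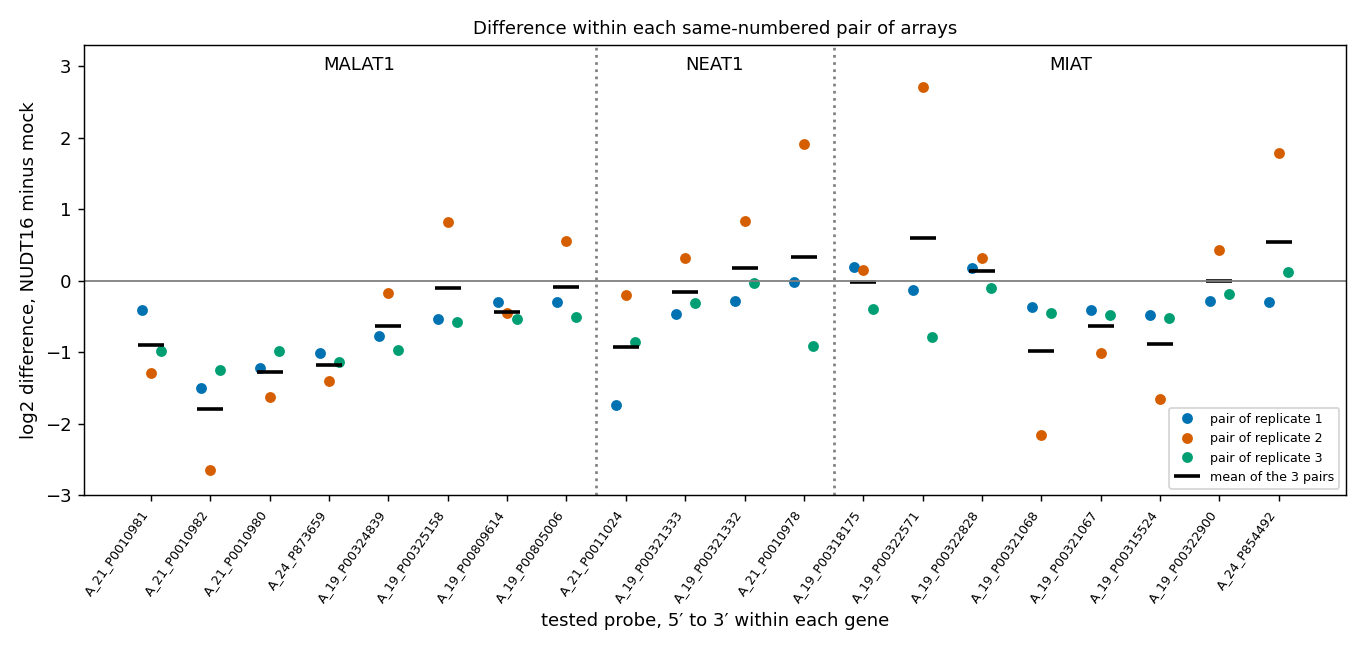
Log2 difference, NUDT16 minus mock, within each same-numbered pair of arrays (points, coloured by replicate number) and the mean of the 3 pairs (bars) for 20 of the 21 tested probes in 5′ to 3′ order. The 5 leftmost MALAT1 probes and the 3 bright MIAT probes have all 3 points below 0, and pair 2 (orange) lies farthest from 0 in many probes.

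The brightest probes of the 3 genes were also compared within each array, where scaling cancels. From mock to NUDT16, MALAT1 minus NEAT1 differed by -0.13, -2.12 and -0.95 in the pairs, a mean of -1.07. NEAT1 minus MIAT differed by 0.19, 2.48 and 0.49, a mean of 1.06. MALAT1 minus MIAT differed by 0.06, 0.36 and -0.47, a mean of -0.01. MALAT1 was thus lower against NEAT1 in each pair and had no steady direction against MIAT; for NEAT1 against either, most of the mean came from pair 2.

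**Figure D5:**
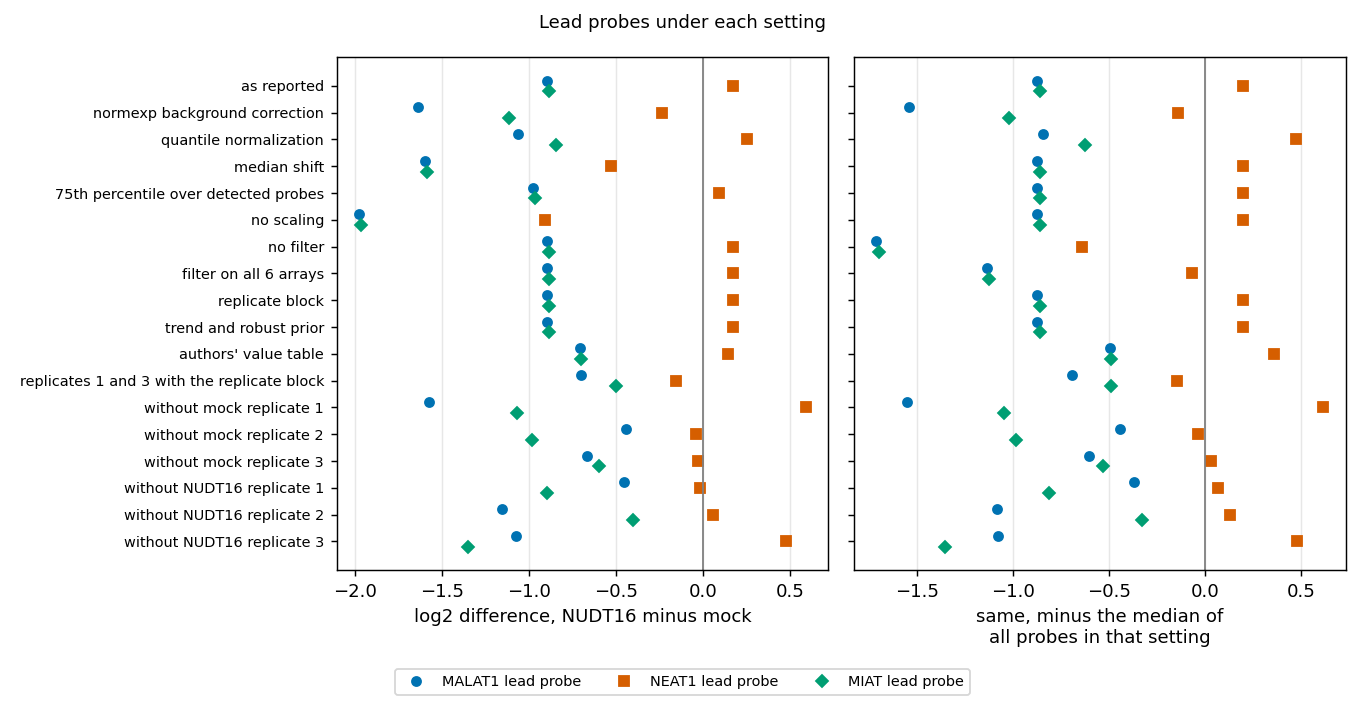
Log2 difference of the brightest probe of each gene (x axis) under each setting of the processing (y axis), as measured (left) and minus the median of all probes in that setting (right). MALAT1 and MIAT lie below 0 throughout, from -1.97 to -0.44 and from -1.96 to -0.40 in the left panel, and NEAT1 lies on both sides of 0.

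Probes listed on the opposite strand were examined at each locus, since antisense RNA is known at MALAT1. At MALAT1, 4 of 5 such probes were tested. A_19_P00331618 of LOC100507645 stood at -0.42, 1.73 and 1.61 on mock and at -0.05, 2.31 and 0.86 on NUDT16 arrays, a difference of 0.07 (SE 0.77). A_21_P0007464 of XLOC_009474, which lies between the MALAT1 probes, stood at -1.73, 1.10 and 0.70 on mock and at -1.41, 1.90 and 0.02 on NUDT16 arrays, a difference of 0.15 (SE 0.91). A_19_P00319476 of LOC100507645 stood at -1.85, 0.44 and 0.27 on mock and at -1.23, 2.92 and -0.58 on NUDT16 arrays, a difference of 0.75 (SE 0.99). Replicate 1 was lowest in both groups for each of these, and pairs 1 and 2 were above 0 while pair 3 was below it. A_19_P00321977 of LOC100507645, well above background on 4 arrays, stood at -2.84, -0.45 and -0.03 on mock and at -4.15, -0.22 and -1.0 on NUDT16 arrays, a difference of -0.69 (SE 0.99), with -1.31, 0.23 and -0.97 in the pairs. In pair 3 all 4 tested probes of the opposite strand were below 0, as upstream MALAT1 was, at -0.75, -0.85, -0.97 and -0.68 along the genome. At NEAT1 the probe of LOC100653017 was well above background on 0 of 6 arrays, and at MIAT 0 of 5 probes of LOC100129936 were tested.

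Tested probes of other genes within 100 kb mostly had differences above 0. Of all tested probes 51.4% lay below 0, but only 36.6% of those well above background on all 6 arrays did. Most probes detected on all arrays thus lay above 0 too. On chromosome 11, 14 of 26 neighbouring probes, those of the opposite strand included, were tested, 12 with a difference above 0 and 2 below, with a median of 0.51. Genes detected on all 6 arrays and above 0 in every pair included SSSCA1 (current symbol ZNRD2; 0.57, SE 0.67), FAM89B (0.91, SE 0.75), MAP3K11 (0.71, SE 0.69) and DPF2 (0.49, SE 0.69). On chromosome 22, 6 of 19 were tested, 5 above 0 and 1 below, with a median of 0.21. In pair 3 all 6 were below 0 and in pair 1 3 of 6, while pair 2 held values up to 1.28. None of the tested neighbours was called, against 1 of all tested probes. The groups of each tested neighbour overlapped, and 1.38% of all tested probes had groups without overlap.

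The proteins that work with these RNAs were followed through their own mRNAs, by lists chosen with earlier results known. The genes named per list are those farthest from 0 among genes well above background on all 6 arrays. In some lists other tested genes lay farther from 0, such as RPP14 (-1.38, SE 0.82) among those for RNase P. Of 20 genes of paraspeckle proteins, which bind NEAT1, 0 were called by limma and 0 had an unadjusted p under 0.05. Of these 20, 18 had a difference below 0, with a median of -0.60 against 0.02 over 13734 genes tested. Over those 13734 genes, 1 was called, 6705 had a difference below 0 and 7029 above 0, as the background for each list below. PSPC1, a core paraspeckle protein, differed by -1.17 (SE 0.76), HNRNPR by -0.80 (SE 0.59) and SFPQ, without which paraspeckles do not form, by -0.79 (SE 0.64). Without NUDT16 replicate 2 the median was -0.24, with 14 of 20 below 0.

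Of 26 genes of nuclear speckle proteins, the company of MALAT1, 0 were called and 0 had an unadjusted p under 0.05. A difference below 0 was seen in 19, against 6705 of 13734 genes tested, and the median was -0.42. The kinase PRPF4B differed by -1.43 (SE 0.96), RBM25 by -1.20 (SE 0.81) and SF3B1, a subunit of the U2 snRNP, by -1.13 (SE 0.84). Each was lower in all 3 pairs, with pair 2 farthest from 0. PRPF4B stood at 1.14, 4.59 and 4.46 on mock and at 0.43, 2.01 and 3.46 on NUDT16 arrays, with replicate 1 lowest in both groups as for MALAT1. In the fit on replicates 1 and 3 alone with the replicate block, 2 of the 26 were called, against 2.13% of all tested probes called lower. Both were lower, PRPF4B (-0.85) and SF3B1 (-0.83), each with an SE of 0.26. The median of the list was -0.15 there, and in the other lists that fit called 0 genes.

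Of 11 tested genes for RNase P, RNase Z and a protein that binds the MALAT1 triple helix, 0 were called and 0 had an unadjusted p under 0.05, with 7 below 0 and a median of -0.22 that became 0.06 without NUDT16 replicate 2. The RNase P subunits POP7 and POP4 differed by 0.41 (SE 0.69) and -0.22 (SE 0.60), and ELAC2, the RNase Z that trims mascRNA, by 0.27 (SE 0.68). Of the MIAT-binding splicing factors, 2 were tested and 0 called, QKI at -0.36 (SE 0.81) and SF1 at 0.12 (SE 0.71), and 0 had an unadjusted p under 0.05.

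Other named long noncoding RNAs did not share one direction. Of 22 tested, 0 were called and 0 had an unadjusted p under 0.05, with 13 above 0 and 9 below and a median of 0.08, which was -0.01 with scaling on the detected probes only. Without NUDT16 replicate 2 they were 7 above 0 and 15 below, with a median of -0.08, and on replicates 1 and 3 alone 16 above and 6 below, with a median of 0.25. TUG1 was lower in all 3 pairs, by -0.67, -2.69 and -0.28, a difference of -1.21 (SE 0.82). MIR22HG differed by 0.93 (SE 0.80), with pair 3 below 0, and JPX, an RNA of the X-inactivation centre, by 0.52 (SE 0.71).

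The genes whose arrays ordered most like the brightest probe of each RNA were found by Pearson's r among 4553 genes detected on all 6 arrays, as a description over arrays that share slides and depth. For MALAT1 these were PPIG, a nuclear cyclophilin that binds SR proteins (r = 0.997), CLGN (0.990), ESF1 (0.989), LEO1 of the PAF1 complex (0.989) and HDAC8 (0.989). PPIG stood at 2.43, 5.91 and 5.09 on mock and at 2.01, 3.79 and 3.85 on NUDT16 arrays. The low replicate 1 and the lower NUDT16 value in every pair were thus not limited to MALAT1. For NEAT1 they were HNRNPU-AS1 (0.987), BHLHE23 (0.979), EMILIN1 (0.961), NFKBIL1 (0.960) and C6orf26 (0.959). For MIAT they were the chromatin remodelling genes SMARCE1 (0.994) and BAZ1B (0.994), the ubiquitin ligase gene VHL (0.986), the pseudouridine synthase gene DKC1 (0.986) and the histone methyltransferase gene MLL (0.985). Over the 5 arrays without NUDT16 replicate 2, r of these 15 genes lay between 0.956 and 0.999.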

How the data were processed

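Per the labels, eluates of a cap immunoprecipitation were reverse transcribed, labelled and hybridised to Agilent design 039494. Per the file headers, Feature Extraction 10.7.3.1 gave a linear fluorescence intensity for each spot, with background and spatial trend removed and a surrogate in place of dim spots, which flattens low values. The value table deposited by the authors holds log2 values; Feature Extraction and limma are named in the submitters' processing notes, and its steps are not given in the sources used here. Its ranks equalled those of median spot minus background intensity (Spearman's rho 1), its scale ran from 4.04 to 18.4, its medians were 6.18 to 6.22 over the 6 arrays, and its centring within genes is unknown; it was used as an alternative.

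Control spots and outlier spots were left out, log2 processed intensity was shifted by each array's 75th percentile, and spots of a probe were averaged. Probes that passed background on each of the 3 arrays of either group (17765) were fitted with limma 3.58.1 in R 4.3.3 (lmFit, eBayes), NUDT16 minus mock, without a block. The fit was tested on simulated data. The brightest probe by mean signal stood for a gene. Same-numbered arrays share a slide, per the file headers, and in replicates 1, 2 and 3 they deviated together from their groups (r = 0.84, 0.39 and 0.77 over the tested probes), so the numbers pair the arrays. Alternatives were normexp (offset 50), other scalings and filters, the replicate block, an intensity trend, the authors' table, replicates 1 and 3 alone, and each array left out. The genes, lists and rules were chosen with earlier results of these data known. By rule, probes of the 3 genes were named, 5 genes most like each brightest probe, and per list the 3 detected genes with the largest difference; the other genes and PRPF4B's and PPIG's array values were picked after values were seen. No reference genome of hg19 was used here. The values of 1 NEAT1 probe and 1 neighbouring gene are not reported here; both are within the counts.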

Additional observations from a re-analysis of the deposited data

How the results depend on the processing

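Over 17 other settings, 303 of 346 differences of the 21 tested probes kept their sign and 43 changed it. For the brightest MALAT1 and MIAT probes the sign was kept in all 17, and without scaling the values were -1.97 and -1.96. The brightest NEAT1 probe changed sign in 7 settings, to -0.53 with a median shift and -0.91 without scaling. The median of all probes was itself -0.72 with a median shift, -1.10 without scaling, -0.22 with quantile normalization and -0.21 in the authors' table. Relative to it the 3 probes stood at -0.87 (MALAT1), 0.20 (NEAT1) and -0.86 (MIAT) under each plain shift. Leaving out 1 array gave -1.57 to -0.44 for MALAT1 (lowest without mock replicate 1, highest without mock replicate 2), -0.04 to 0.59 for NEAT1 and -1.35 to -0.40 for MIAT. Among all tested probes limma called 1 as reported, with the replicate block and without each array; 0 with normexp, without scaling, without a filter, where detection on all 6 arrays was required and in the authors' table; and 521 on replicates 1 and 3 with the replicate block. Over all 3 pairs that block left the differences as they were and called 0 of the 21, but it changed the SEs. The SE of the brightest MALAT1 probe was 0.32 with the block against 0.72 without it, and that of the brightest NEAT1 probe 0.34 against 0.62. In these the cause was not tested. Quantile normalization turned the MALAT1 probes A_19_P00325158 and A_19_P00805006 to 0.02 and 0.01. The low signal over background of NUDT16 replicate 2 limits every difference of a dim probe.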
